A study of Mus musculus with 38 samples.

Results

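Haloperidol is an antipsychotic that blocks dopamine D2 receptors, and the comparison described here is the brain arm of a study of mice that carried slow-release pellets of the drug, or of placebo, for 30 days. Its members are 10 whole-brain arrays labelled drug and 10 labelled placebo, 20 of the 38 arrays of the series, and the changes across 18820 genes on them. All mice were C57BL/6J, an inbred strain, bred in-house from Jackson Laboratory stock. The series design gives 20 mice for the 20 brain arrays. The labels state no dose, age or sex. Arrays are named below by the tag of a digit and a letter in their titles, whose meaning no label explains.

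A whole brain mixes every region and cell type. D2 receptors are concentrated in the striatum, where dopamine from the midbrain acts on projection neurons. Blocking them is known to raise the neuropeptide neurotensin and several immediate early genes in striatal neurons. Messages for ribosomes and respiratory chain subunits come mostly from short, highly expressed genes used in every cell, whereas many synaptic and chromatin genes are very long. In bulk tissue, a change in the number of cells of a type and a change of RNA per cell cannot be told apart.

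The labelled tissue was checked with 3 markers. Snap25, a synaptic protein gene of neurons, lay at log2 values of 12.71 to 12.86 with haloperidol and 12.69 to 12.88 with placebo. Camk2a, a kinase subunit of excitatory neurons, lay at 12.21 to 12.50 and 12.34 to 12.48. Gfap, an astrocyte filament gene, lay at 9.56 to 10.01 and 9.21 to 9.82. All 3 were high on every array and their groups overlapped. None passed the test used below (limma, Benjamini-Hochberg adjusted p of 0.94, 0.56 and 0.15). Changes are haloperidol minus placebo in log2 units, a gene is called higher or lower where its adjusted p is under 0.05, and the third of the genes with the lowest mean over the 20 arrays, below 5.52, was not tested.

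Some arrays carried RNA of other organs. In haloperidol 4T the albumin gene Alb was at 11.11, against 3.93 to 4.51 on the other 19 arrays, and the mean of 18 liver genes measured was 7.84, against at most 5.08 elsewhere. Gh, the growth hormone gene of the pituitary, exceeded 6 on 6 arrays, 3 of each group, and reached 10.45 with haloperidol and 11.49 with placebo. Arrays of a group correlated with each other at 0.979 to 0.997. Counts are given with and without 4T where its liver RNA could matter.

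Sequences are shown first for the microRNA genes, because the microRNA genes were the list with the lowest median change, and then for 4 promoters. A microRNA recognises its targets mainly through its seed, bases 2 to 8 of the mature strand, printed in capitals. The first set below holds strands of 4 genes of a cluster on chromosome 12 (GRCm38.p6, 12:109571990-109743496 as spanned by the genes tested). All 4 were lower with haloperidol. The probes are named for microRNA genes, and precursor and mature RNA cannot be told apart by these values. Genes were picked for display after their values were seen.
mmu-miR-379-3p: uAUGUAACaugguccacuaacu
mmu-miR-411-3p: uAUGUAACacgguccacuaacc
mmu-miR-134-5p: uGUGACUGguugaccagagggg
mmu-miR-154-5p: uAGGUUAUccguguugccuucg

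The seeds of the first pair are the same, AUGUAAC. The second set holds strands of genes outside that cluster, chosen because several share a seed. Mir128-1 on chromosome 1 and Mir128-2 on chromosome 9 give the same mature strand. Mir181b-1 and Mir181c share the seed ACAUUCA, Mir15a and Mir16-1, neighbours on chromosome 14, share AGCAGCA, and Mir103-2 and Mir107 share GCAGCAU.
mmu-miR-128-3p: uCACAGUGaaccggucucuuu
mmu-miR-181b-5p: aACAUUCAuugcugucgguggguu
mmu-miR-181c-5p: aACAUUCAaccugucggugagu
mmu-miR-15a-5p: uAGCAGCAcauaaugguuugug
mmu-miR-16-5p: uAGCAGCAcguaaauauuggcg
mmu-miR-103-3p: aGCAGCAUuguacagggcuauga
mmu-miR-107-3p: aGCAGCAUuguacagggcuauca

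Promoter sequences (RefSeq, GRCm38.p6, 250 bases ending just before the gene's start) are shown for 4 genes with higher levels. Nts encodes the neurotensin precursor and was the largest rise among genes that are not small RNA genes. Alas2 encodes the heme synthesis enzyme of red cell precursors and had the widest gap between the groups. Rps18 and Atp5h stand for the ribosomal and respiratory groups as the members of smallest p whose promoter holds an ETS motif. Capitals mark an AP-1 motif and a CRE-like motif in Nts (10:102490419-102490668, minus strand), a GATA motif in Alas2 (X:150547167-150547416, plus strand), and ETS motifs in Rps18 (17:33955666-33955915, minus strand) and Atp5h (11:115419920-115420169, minus strand).
Nts: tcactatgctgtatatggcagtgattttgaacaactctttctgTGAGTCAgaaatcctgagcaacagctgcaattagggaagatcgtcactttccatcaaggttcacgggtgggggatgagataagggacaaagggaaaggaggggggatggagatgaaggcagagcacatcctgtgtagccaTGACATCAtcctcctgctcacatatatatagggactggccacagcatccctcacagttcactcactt
Alas2: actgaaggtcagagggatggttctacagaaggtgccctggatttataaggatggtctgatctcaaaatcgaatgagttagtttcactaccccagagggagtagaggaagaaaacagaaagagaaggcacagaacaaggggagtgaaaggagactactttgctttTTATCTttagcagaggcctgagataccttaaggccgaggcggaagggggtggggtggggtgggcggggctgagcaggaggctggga
Rps18: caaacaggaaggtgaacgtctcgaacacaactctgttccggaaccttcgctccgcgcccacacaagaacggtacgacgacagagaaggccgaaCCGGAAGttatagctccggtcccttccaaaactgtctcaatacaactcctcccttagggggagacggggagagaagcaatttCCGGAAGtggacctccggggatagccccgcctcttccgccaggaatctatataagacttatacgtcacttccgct
Atp5h: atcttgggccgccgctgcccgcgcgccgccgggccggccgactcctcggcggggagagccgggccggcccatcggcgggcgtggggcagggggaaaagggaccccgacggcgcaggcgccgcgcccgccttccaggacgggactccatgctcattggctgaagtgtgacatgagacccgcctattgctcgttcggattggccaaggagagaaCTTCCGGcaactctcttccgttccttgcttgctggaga

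On both strands of the full 300-base windows 8 motifs were searched. Those of the printed promoters were TGANTCA for AP-1, TGACNTCA for CRE-like, AGATAA for GATA and CCGGAAG for ETS. The others were AAGATGG for the factor YY1, GCATGCG for the core of the NRF1 site, CACGTG for the E-box of helix-loop-helix factors, and TATAAA for the TATA box. In Nts the AP-1 match TGAGTCA lay at bases -207 to -201 from the start and the CRE-like match TGACATCA at -67 to -60. In Alas2 the GATA match lay at -86 to -81. AP-1 motifs occurred in 3.93% of 7782 protein-coding genes tested with 1 window and in 7.81% of all 32851 windows of the table, CRE-like motifs in 7.12% and 8.83%, and GATA motifs in 5.77% and 11.2%. A match describes letters and shows no binding.

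Neurotensin led the changes of protein-coding genes. Nts was at 6.60 to 8.70 (median 7.64) in the haloperidol arrays and at 5.93 to 6.78 (median 6.32) in the placebo arrays. Of the 10 haloperidol arrays, 8 lay above every placebo array, and 1R and 4L overlapped with placebo. The difference was 1.26 ± 0.23 log2 units (SE), or 2.40-fold (limma, Benjamini-Hochberg adjusted p = 0.0037). By tag digit, the difference was 0.96 for digit 1, 1.36 for digit 2, 2.19 for digit 3 and 0.77 for digit 4, with 2 or 3 arrays of each group behind each value. Without 4T it was 1.33.

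Alas2 lay at 7.47 to 8.13 (median 7.78) with haloperidol and 6.31 to 7.30 (median 6.99) with placebo. The groups did not overlap. The change was 0.85 ± 0.11 (limma adjusted p = 0.00105). It was between 0.61 and 1.12 in each of the 4 tag digits, and 0.85 without 4T.

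Of the 8 blood genes measured, Alas2 included, 2 were bright enough to test, and Alas2 alone passed. Ppbp, a platelet chemokine gene, differed by 0.42 ± 0.16 and missed the threshold (limma adjusted p = 0.053). Below the limit for testing, Slc4a1, the anion exchanger of red cells, was at 5.16 to 6.62 with haloperidol and 4.83 to 5.33 with placebo, and the platelet factor gene Pf4 at 5.27 to 5.94 and 5.05 to 5.68. The neutrophil genes S100a8, Camp and Ngp differed by 0.16, 0.21 and 0.07, and S100a9 by -0.15, the opposite direction. The mean of all 8 genes was 5.16 to 5.74 with haloperidol and 4.98 to 5.34 with placebo, with 8 haloperidol arrays above every placebo array. The part of blood in the Alas2 difference was not tested.

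**Figure D1:**
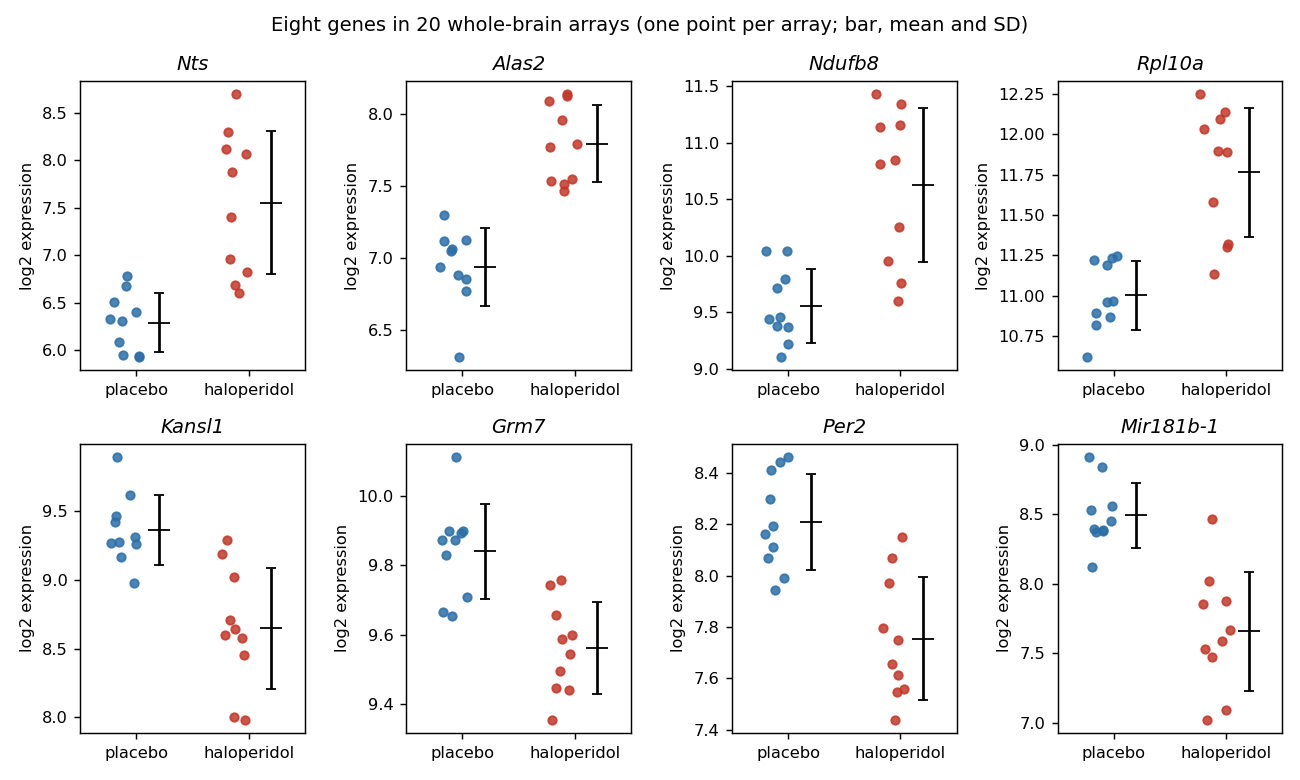
Expression (log2, vertical axes) of 8 genes in 10 placebo and 10 haloperidol whole-brain arrays, one point per array, with the group mean and SD as a bar. Alas2 has no overlap between the groups, whereas in Nts, Ndufb8, Rpl10a and Mir181b-1 some haloperidol arrays lie within the placebo range.

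Across all genes the change was broad and small. Of 12547 genes tested, 3816 passed (30.4%; limma, adjusted p under 0.05), 1911 of them higher (15.2%) and 1905 lower (15.2%). The median change over all genes was -0.02. Among the genes that passed the median size was 0.30 log2 units. A further 6273 genes were too dim to test. Only 13 genes (0.104%) had groups that did not overlap.

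Those 13 genes were 5 with haloperidol above placebo and 8 below. Above were Alas2, Isg20, Hddc3, Ccl6 and F11r, and below were Ccdc93, Lrrfip2, Eri1, Fancg, Cpsf4, Vezt, Luc7l and Stx2. Ccl6, a chemokine of myeloid cells, was at 5.64 to 6.23 (median 5.95) with haloperidol and 5.05 to 5.62 (median 5.36) with placebo, a rise of 0.55 ± 0.08 (limma adjusted p = 0.0019). Its placebo median lay below the limit of 5.52 for testing, and only its haloperidol values brought its mean above that limit. Isg20, an interferon-induced exonuclease, rose by 0.52 ± 0.09. Eri1, an exonuclease that trims histone mRNA and small RNAs, was at 7.61 to 7.98 (median 7.94) and 8.02 to 8.33 (median 8.08), a difference of -0.24 ± 0.06 (limma adjusted p = 0.0057). Luc7l, a splicing factor, changed by -0.30, and Cpsf4, a subunit of the mRNA cleavage complex, by -0.21. F11r, Luc7l and Stx2 lay outside the rule for named genes and are given because they complete the count. With each array's median over all probes subtracted, Lrrfip2, Eri1, Fancg, Cpsf4 and Vezt no longer passed (adjusted p of 0.11, 0.22, 0.2, 0.33 and 0.21).

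The respiratory chain, which makes ATP in mitochondria, was the first of the groups that rose. Of 34 complex I subunit genes tested, 27 were higher and 0 lower, with a median change of 0.41 against -0.02 for all genes. Of 42 genes of complexes II to V, 35 were higher and 0 lower, with a median of 0.38. Without 4T the counts were again 27 and 35.

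Ndufb8, a complex I subunit, was at 9.60 to 11.43 (median 10.83) with haloperidol and 9.10 to 10.04 (median 9.45) with placebo. In 7 haloperidol arrays it exceeded every placebo array. Its change was 1.07 ± 0.21 (limma adjusted p = 0.0042). Atp5e, the smallest subunit of the ATP synthase head, changed by 1.14 ± 0.24, and Ndufa7 by 1.03 ± 0.22. Changes were smaller for Ndufa4 (0.58), Cox4i1 of cytochrome oxidase (0.68), Cox5b (0.39) and Atp5g3 (0.37), which reached similar p-values through a smaller spread.

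Genes for building mitochondria rose with them. Of 74 mitochondrial ribosomal protein genes, 51 were higher and 0 lower, with a median change of 0.34, and of 22 import genes 14 were higher and 0 lower, with a median of 0.29. Mrpl14 rose from 7.27 to 7.89 (median 7.60) with placebo to 7.40 to 9.51 (median 8.84) with haloperidol, a change of 1.04. Tomm7 of the outer-membrane import channel was at 9.08 to 10.39 (median 9.84) with haloperidol and 8.56 to 9.46 (median 8.77) with placebo. Its change was 0.89 ± 0.14 (limma adjusted p = 0.0026). Tomm5 of the same channel changed by 1.09. Tomm70a, an import receptor, changed less, by 0.27.

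Cytosolic ribosomal protein genes made the list with the highest share of rises among lists with 10 or more genes tested. Of 69 tested, 63 were higher (91.3%) and 0 lower, with a median change of 0.40. Rpl10a, a large-subunit protein, was at 11.13 to 12.25 (median 11.89) with haloperidol and 10.62 to 11.25 (median 10.96) with placebo. Only 1R lay within the placebo range. The change was 0.76 ± 0.13 (limma adjusted p = 0.0033), and 3 further probes of the gene differed by 0.76 to 0.78. Rps27l, a paralog of Rps27, rose by 1.01, Rps27 by 0.86 and Rps19 by 0.76. Many ribosomal protein genes have near-identical processed copies in the genome, so the probes of this list may read more than 1 locus.

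ETS motifs like those printed for Rps18 and Atp5h were found in 20 of 46 cytosolic ribosomal protein genes with 1 window (43.5%), in 12 of 29 genes of complexes II to V (41.4%) and in 22 of 62 mitochondrial ribosomal protein genes (35.5%). Complex I genes had it in 4 of 29 (13.8%). The share was 17.5% over all genes tested with 1 window, 23.4% over those higher and 17.3% over those lower, and 8.86% over all windows of the table. The share of complex I genes was below that of all genes tested. The YY1 motif was in 7 of 29 complex I genes (24.1%) and 13 of 62 mitochondrial ribosomal protein genes (21%), against 7.36% of all genes tested with 1 window. The NRF1 core was in 7 of 29 genes of complexes II to V (24.1%), against 6.78%. Over the higher and the lower genes, the YY1 shares were 9.15% and 8.1% and the NRF1 core shares 8.31% and 7.83%. The E-box was in 10.5% of the higher and 7.92% of the lower genes, and the TATA box in 8.7% and 5.34%.

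Protein breakdown and splicing cores followed the same direction. Of 44 proteasome subunit genes, 31 were higher and 2 lower, with a median of 0.32. The 2 lower ones were Psme4 (-0.34) and Psme3 (-0.17), both activators that cap the core, whereas the interferon-inducible activators Psme1 (0.63) and Psme2 (0.64) were higher. Psme3 and Psme4 are named because they complete the count. Psma2 of the core was at 8.71 to 9.45 (median 9.08) with haloperidol and 8.46 to 8.83 (median 8.60) with placebo, with 9 haloperidol arrays above every placebo array. Of 23 Sm and LSm genes, which form the rings of spliceosomal small nuclear RNPs and related complexes, 13 were higher, among them Snrpd2 (0.77), Lsm7 (0.66) and Snrpc (0.42). Only Lsm14b (-0.21) was lower, and without 4T 2 of the list were lower.

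Splicing regulators went the other way. Of 38 genes of the SR, hnRNP, Srrm, Rbfox, Nova and Ptbp families, 0 were higher and 15 lower, with a median change of -0.14. Rbfox2, a neuronal splicing regulator, was at 9.75 to 10.24 (median 10.04) with haloperidol and 10.19 to 10.40 (median 10.24) with placebo. In 9 haloperidol arrays it lay below every placebo array. Srrm1 (-0.34) and Srrm2 (-0.30), scaffolds of nuclear speckles, were also lower. On values with the array median subtracted, 3 genes of the list were lower and 4 higher, so the direction of this list depends on the scale.

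Chromatin regulators fell as a group. Of 50 genes of histone methyltransferases, demethylases, remodelers and coactivators, 0 were higher and 27 lower, with a median of -0.19. Chd1, a nucleosome remodeler, was at 7.32 to 7.91 (median 7.71) with haloperidol and 7.89 to 8.16 (median 7.96) with placebo, a change of -0.34 ± 0.07 (limma adjusted p = 0.0043). Chd9 changed by -0.38 and Chd6 by -0.34, although a second probe of Chd6 changed by only -0.04. Subtracting the array median left 5 lower and 3 higher. Kansl1, which encodes a subunit of a histone acetyltransferase complex, was among the largest falls at -0.72 ± 0.15, and its second probe differed by -0.15. Of 6 histone genes tested, 4 were higher, namely H1f1 (0.94), H3f3a (0.60), H1f5 (0.56) and H1f2 (0.38). Of 299 zinc finger genes of the Zfp series, 31 were higher (10.4%) and 48 lower (16.1%). The share lower was near the 15.2% of all genes, and the share higher was below the 15.2% of all genes. Zfp692 (-0.53) and Zfp276 (-0.51) were among the lower ones, while Zfp931 (1.08) was among the largest rises of all genes.

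**Figure D2:**
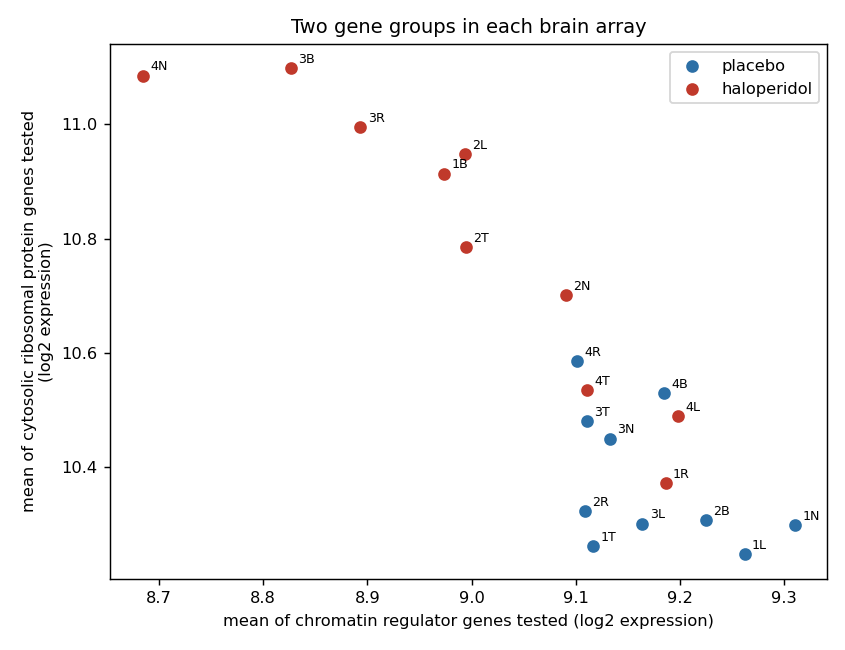
Mean log2 expression of 69 cytosolic ribosomal protein genes (vertical axis) against that of 50 chromatin regulator genes (horizontal axis) in each of the 20 brain arrays, labelled by tag. Haloperidol 4N, 3B and 3R lie at the upper left, and haloperidol 1R, 4L and 4T lie among the placebo arrays.

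The 2 groups of genes moved against each other from array to array. The mean of the cytosolic ribosomal protein genes was 10.37 to 11.10 (median 10.85) with haloperidol and 10.25 to 10.59 (median 10.31) with placebo, and 7 haloperidol arrays exceeded every placebo array. The mean of the chromatin regulator genes was 8.68 to 9.20 (median 8.99) and 9.10 to 9.31 (median 9.15), and 7 haloperidol arrays lay below every placebo array. The same 7 arrays lay outside the placebo range in both means, and 1R, 4L and 4T stayed within it in both. Haloperidol arrays were more spread than placebo arrays, with an SD of 0.26 against 0.12 for the ribosomal mean.

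MicroRNA genes were lower. The list was made by gene symbol and also holds the microRNA host genes Mir100hg, Mir99ahg and Mir17hg. Of 306 measured, 118 were bright enough to test, Mir100hg and Mir99ahg among them. Of these 118, 78 were lower and 2 higher, Mir703 (0.63) and Mir296 (0.32), with a median change of -0.45. Of the 116 tested genes annotated as microRNA, 78 were lower and 2 higher. Their mean per array was 6.25 to 6.98 (median 6.65) with haloperidol and 6.78 to 7.29 (median 6.93) with placebo, with 9 haloperidol arrays below every placebo array. Without 4T, 71 were lower and the median was -0.39. After subtraction of the array median, 62 were lower and 4 higher.

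Mir181b-1, whose strand is printed above, was at 7.02 to 8.46 (median 7.63) with haloperidol and 8.12 to 8.91 (median 8.42) with placebo. Only 1R lay within the placebo range. The change was -0.83 ± 0.14 (limma adjusted p = 0.0032). Mir181c, with the same seed, changed by -0.37 ± 0.13 (limma adjusted p = 0.032, and 0.053 without 4T). Mir128-2 changed by -0.72 and Mir128-1 by -0.55, Mir15a by -0.62 and Mir16-1 by -0.52.

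Mir103-2 was at 4.87 to 6.05 (median 5.38) with haloperidol and 5.97 to 6.60 (median 6.05) with placebo, a change of -0.74 ± 0.11 (limma adjusted p = 0.0019). Its haloperidol median lay below the limit of 5.52 for testing, so it was kept through its placebo values. Mir107, which shares its seed, was at 4.61 to 5.72 and 5.28 to 6.37. Its change of -0.36 ± 0.14 did not pass (adjusted p = 0.056).

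The chromosome 12 cluster is imprinted and expressed from the maternal allele. Of its 33 microRNA genes tested, 31 were lower and 0 higher, with a median of -0.56, and -0.51 without 4T. Of the 85 genes of the list elsewhere, host genes included, 47 were lower and 2 higher, with a median of -0.29. Mir379 of the cluster was at 5.60 to 7.25 (median 6.48) with haloperidol and 6.82 to 7.62 (median 7.15) with placebo, a change of -0.74. Mir543 changed by -0.75 and Mir134 by -0.50. The difference between cluster and other genes was not tested. Among the lower genes, 75 had a mature sequence in RefSeq, with 125 seeds, of which 13 were shared by several genes.

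Other small and noncoding RNAs went in both directions. Of 45 small nucleolar RNA genes, 6 were higher (13.3%) and 9 lower (20%), against 15.2% of all genes in each direction. Without 4T, 7 were higher and 7 lower. Snora44 was at 8.81 to 11.24 (median 10.64) with haloperidol and 8.0 to 9.50 (median 8.63) with placebo, a change of 1.64 ± 0.27 (limma adjusted p = 0.0031), the largest of any gene tested. Snord82 rose by 0.78, while Snord14e (-0.81) and Snord95 (-0.54) were lower. Vaultrc5, a vault RNA, changed by 1.33, with 4.40 to 6.09 for placebo and 5.64 to 6.86 for haloperidol. Its placebo mean of 5.10 was below the limit too, so its haloperidol values alone let it be tested. Dnm3os, a transcript antisense to Dnm3 that hosts microRNAs, was at 5.34 to 6.40 (median 6.05) and 6.37 to 6.85 (median 6.57), a change of -0.65 ± 0.11. Of 122 long noncoding RNA genes, 11 were higher and 34 lower, including Airn (-0.69, and -0.33 at a second probe), which runs antisense to Igf2r. The labels do not state how far these probes keep strands apart.

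Glutamate receptor genes were lower where they changed. Of 21 glutamate receptor genes, 0 were higher and 12 lower, with a median change of -0.24. They were the AMPA receptor genes Gria1, Gria2, Gria3 and Gria4, the kainate receptor genes Grik1 and Grik2, the NMDA receptor genes Grin2a, Grin2b and Grin2c, and the metabotropic receptor genes Grm4, Grm5 and Grm7. Grm7 was at 9.36 to 9.76 (median 9.57) with haloperidol and 9.65 to 10.11 (median 9.87) with placebo, and 7 haloperidol arrays lay below every placebo array. Its change was -0.28 ± 0.06 (limma adjusted p = 0.0051). Gria2, the subunit that keeps AMPA receptors closed to calcium, changed by -0.27. After subtraction of the array median only 1 of the list was lower, Grm7 and Gria2 no longer passed (adjusted p of 0.063 and 0.084), and 0 were higher.

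Release and adhesion genes were called lower in smaller shares. Of 38 vesicle and release genes, 6 were lower (15.8%, near the 15.2% of all genes), among them Unc13a (-0.37, and -0.19 at a second probe) and Pclo (-0.30), which prepare vesicles for release, and 1 was higher, Syt5 (0.23). Of 31 adhesion genes, 10 were lower (32.3%), led by Nrxn3 (-0.28) and Ptprd (-0.27), and 1 was higher, Cntnap2 (0.15). Of 25 voltage-gated potassium channel genes 6 were lower (24%), including Kcnc1 (-0.37). Of 31 sodium, calcium and HCN channel genes 9 were lower (29%), including Cacna1a (-0.38). On values with the array median subtracted, 1 release gene was lower and 3 higher, and 0 adhesion genes were lower and 3 higher. On that scale 1 potassium channel gene was lower and 0 higher, and 1 sodium, calcium or HCN channel gene was lower and 1 higher. Without the 6 arrays with Gh above 6, 4 adhesion genes were lower and 0 higher. Of 17 postsynaptic scaffolds only Dlg2 (-0.14) and Dlgap1 (-0.26) were lower, a share of 11.8% against 15.2% of all genes. A second probe of Dlgap1, brighter in brain, changed by only -0.065, and with it Dlgap1 did not pass (adjusted p = 0.39). Of 14 GABA receptor genes, Gabrg1 (0.66), Gabra5 (0.28) and Gabra4 (0.27) were higher and Gabrb2 (-0.14) was lower. In the 20 fits that each left out 1 array, Dlg2 passed in 12, Dlgap1 in 8 and Gabra4 in 15. Syt5, Cntnap2 and Gabrb2 are named because they complete their counts.

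**Figure D3:**
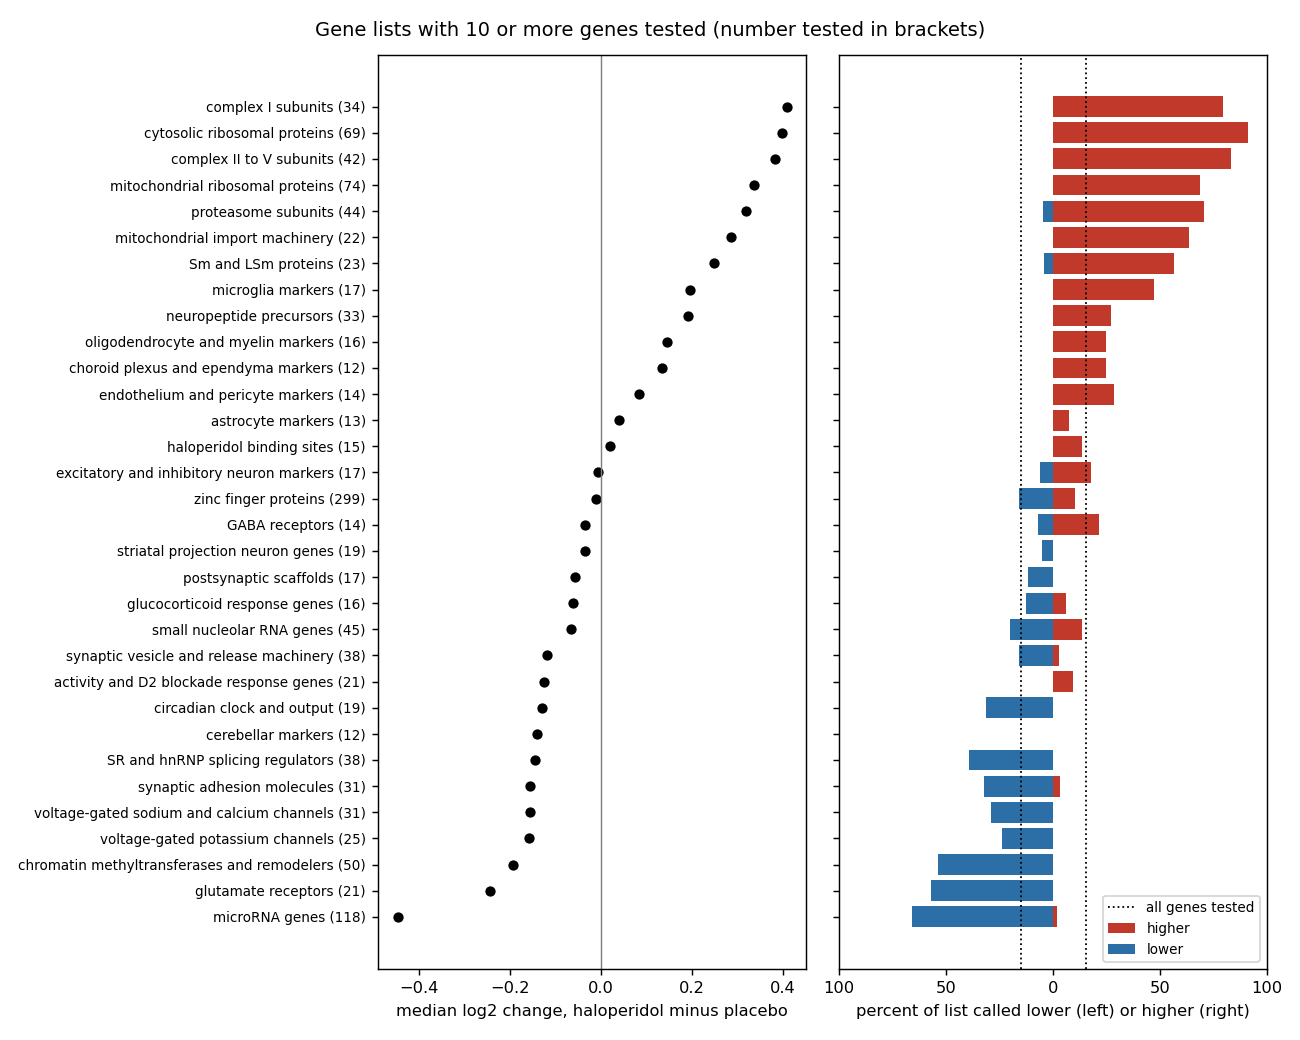
Gene lists with 10 or more genes tested (vertical axis, number tested in brackets). The left panel gives the median log2 change, haloperidol minus placebo, and the right panel the percent of each list called higher (red) or lower (blue), with dotted lines at the 15.2% of all genes called in each direction. Complex I, ribosomal and other mitochondrial lists lie at the top and microRNA genes at the bottom, with a median of -0.45.

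The receptors and other proteins that haloperidol binds changed little. Of 15 genes measured, 2 passed, Adra2c (0.33 ± 0.10; limma adjusted p = 0.018) and Htr2c (0.19 ± 0.07; adjusted p = 0.041), a share of 13.3% against 30.4% of all genes. Htr2c no longer passed without 4T (adjusted p = 0.059), and it passed in 10 of the 20 fits that each left out 1 array.

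Drd2, the main target, was at 7.82 to 8.78 (median 8.29) with haloperidol and 7.86 to 9.03 (median 8.37) with placebo. The groups overlapped almost wholly, and the change was -0.04 ± 0.13. Drd1 changed by 0.02 ± 0.12, Drd3 by -0.21 ± 0.14, Drd4 by 0.02 ± 0.07 and Drd5 by 0.13 ± 0.12, none past the threshold (adjusted p of 0.91, 0.27, 0.83 and 0.43, and 0.86 for Drd2). Htr2a, the serotonin 2A receptor, was at 8.82 to 9.62 and 9.09 to 10.21, with a change of -0.28 ± 0.11 that missed the threshold (adjusted p = 0.055) and passed without 4T (adjusted p = 0.029). The other 7 (Htr7, Htr1a, Adra1b, Hrh1, Tmem97, Ebp and Dhcr7) changed by -0.06 to 0.19. Tmem97 is the sigma-2 receptor, and Ebp and Dhcr7 are sterol enzymes that bind haloperidol.

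Genes of the dopamine system and its target cells were also mostly within the spread. Of 8 dopamine synthesis and transport genes tested, Slc6a3, the dopamine transporter gene of midbrain neurons, was higher at 7.89 to 8.74 (median 8.20) against 6.79 to 8.03 (median 7.81), a change of 0.50 ± 0.13. Its lowest placebo value came from 1L, which also had the highest Gh. Maoa, a monoamine-degrading enzyme, was higher by 0.44, and 0 of the 8 were lower. These 2 rises made a share of 25%, against 15.2% of all genes. Of 19 striatal projection neuron genes, Arpp21 alone passed (-0.22), a share of 5.26% lower, below the 15.2% of all genes. Of 21 genes known to respond to neuronal activity or D2 blockade, Rgs2 (0.40) and Rgs4 (0.28), brakes on G protein signalling, were higher, and 0 were lower. The share higher was 9.52%, below the 15.2% of all genes. The median of that list was -0.13, and 18 of its 21 changes were negative. Fos, an immediate early gene, is given here after its values were seen. It was at 6.57 to 7.29 (median 6.97) and 6.62 to 7.60 (median 7.25), and did not pass (limma adjusted p = 0.087).

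Some neuropeptide genes other than Nts were higher too. Of 33 precursor genes tested of 46 measured, Nts included, 9 were higher and 0 lower, with a median of 0.19. The share higher was 27.3%, against 15.2% of all genes, and Nts was 1 of the 9. Rln3, the relaxin-3 gene of the brainstem, was at 6.88 to 9.27 (median 7.63) with haloperidol and 5.99 to 7.24 (median 6.99) with placebo, a change of 0.82 ± 0.22. Grp, gastrin-releasing peptide, changed by 0.68, and Vip by 0.43. The remaining ones were Hcrt, Avp, Trh, Gal and Sst. Without 4T, 8 were higher and 3 lower.

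Some clock genes were lower. Of 19 tested, 0 were higher and 6 lower, and with the array median subtracted 2 were higher and 1 lower. Per2, a repressor of the circadian clock, was at 7.44 to 8.15 (median 7.70) with haloperidol and 7.95 to 8.46 (median 8.18) with placebo, and 7 haloperidol arrays lay below every placebo array. Its change was -0.45 ± 0.09 (limma adjusted p = 0.0043), and by tag digit it was between -0.51 and -0.36. Per3 (-0.34), Per1 (-0.26), Cry2 (-0.20) and Csnk1e (-0.20) were lower, and so was Arntl (-0.31), an activator that peaks opposite to the Per genes in most tissues. The labels state no hour of dissection. Of 16 glucocorticoid-responsive genes, Ddit4 (0.30) was higher (6.25%) and Zbtb16 (-0.32) and Per1 lower (12.5%). Both shares were below the 15.2% of all genes called in each direction. When 1L, 4N and 4T were dropped together, 0 genes of this list were higher and 0 lower. Per1 passed in 10 and Ddit4 in 17 of the 20 fits that each left out 1 array.

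Cell type markers were measured beside these changes. Of 17 microglia markers, 8 were higher (47.1%, against 15.2% of all genes) and 0 lower, with a median of 0.20. Their mean per array was 7.41 to 8.07 (median 7.74) with haloperidol and 7.12 to 7.65 (median 7.45) with placebo. Lyz2, lysozyme of macrophages and microglia, was at 6.82 to 8.99 (median 8.18) and 6.52 to 7.58 (median 6.90), a change of 1.06 ± 0.24. Its range with haloperidol was the widest of the named microglia markers. Aif1 changed by 0.57 and Fcer1g by 0.47.

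Other cell types had fewer calls. Over all genes, 15.2% were higher and 15.2% lower. Of 16 oligodendrocyte genes, Opalin (0.70), Aspa (0.57), Ppp1r14a (0.52) and Mal (0.32) were higher (25%) and 0 lower. Of 14 endothelium and pericyte genes, Itm2a (0.84), Rgs5 (0.63), Kcnj8 (0.36) and Emcn (0.29) were higher (28.6%) and 0 lower. Among 13 astrocyte genes S100b (0.41) alone passed, a share of 7.69% higher, below that of all genes. Among 17 neuron markers Pvalb (0.44), Vip and Sst (0.29) were higher and Slc17a7 (-0.20), the vesicular glutamate transporter of cortex, lower. The neuron shares were 17.6% higher, near that of all genes, and 5.88% lower, below it. Of 12 cerebellar genes 0 passed in limma and 1 had an unadjusted p under 0.05, with a median change of -0.14. Without the 6 arrays with Gh above 6, 5 of them were lower and 0 higher, with a median of -0.31. When 1L, 4N and 4T were dropped together, 2 were lower and 0 higher. Of 12 choroid plexus and ependyma genes, Calml4 (0.79), Kcne2 (0.43) and Tmem212 (0.25) were higher (25%), and 1L was the lowest placebo array in Calml4 and Kcne2. Ttr, the most abundant choroid plexus gene, was at 12.12 to 12.42 and 10.99 to 12.37. Slc17a7 and Kcne2 each passed in 6 and Tmem212 in 13 of the 20 refits without a single array. The part of these markers in the other results was not tested.

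Direction followed the length of the gene. With 12168 protein-coding genes split into 10 equal bins by genomic span, the bin of the shortest genes (304 to 4713 bases) had 32.4% of its genes higher and 5.42% lower, and a median change of 0.11. The bin of the longest genes (148313 to 2390387 bases) had 4.68% higher and 23.7% lower, and a median of -0.10. Each bin in between had a lower median than the next shorter one. The median span was 12663 bases for the 1874 higher genes, 45881 for the 1762 lower ones and 26118 for all. Across genes, which are not independent replicates, the change correlated with log10 span at -0.31, and the main axis of variation among arrays of the same group, described below, at -0.28.

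Not every gene list followed this pattern. The median span was 3183 bases for cytosolic ribosomal proteins and 7484 for complex I, both with positive medians, and 71950 for chromatin regulators and 318674 for glutamate receptors, both with negative ones. MicroRNA genes, with a median span of 84 bases, were lower, and the genes of the activity and D2 blockade list (6166 bases) and the cerebellar list (6677 bases) had medians of -0.13 and -0.14.

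**Figure D4:**
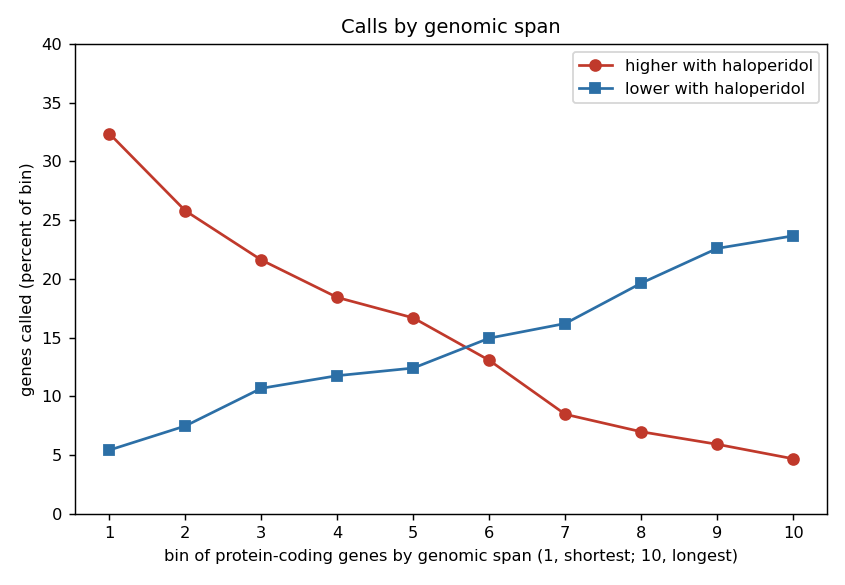
Percent of genes called higher or lower with haloperidol (vertical axis) in 10 bins of 12168 protein-coding genes ordered by genomic span (horizontal axis). The share called higher falls from 32.4% for the shortest to 4.68% for the longest genes, and the share called lower rises from 5.42% to 23.7%.

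The changes lay along an axis that also separated arrays within each group. A principal component analysis of these 12547 genes put 53.2% of the variance on its first component. Haloperidol arrays lay at -13.98 to 42.60 (median 13.26) on it and placebo arrays at -23.79 to -2.58 (median -12.23). Of the haloperidol arrays 8 were above every placebo array, and 1R and 4L were not (permutation test, two-sided p = 0.00054, 0.00072 after Benjamini-Hochberg over 4 array measures). By tag digit, the difference was 20.8, 24.2, 40.4 and 15.2 for digits 1 to 4.

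An axis computed after each group's mean was removed held 40.7% of the variance within groups. The log2 change of the 12547 genes correlated with their loading on it at 0.88, and with the first axis of the placebo arrays alone at 0.54. These are correlations across genes that share the same arrays, given as a description. Of the 3816 genes called, 98.4% had a loading of the same sign as their change. The same share over all 12547 genes was not computed, so this is not a trait of the called genes alone. Nts and Ndufb8 lay far out on this axis. Genes off it were fewer, with Alas2 (0.85), Vaultrc5 (1.33) and Mir181b-1 (-0.83) showing large changes for their loadings, and Dnm3os a change of -0.65 with a loading near 0.

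**Figure D5:**
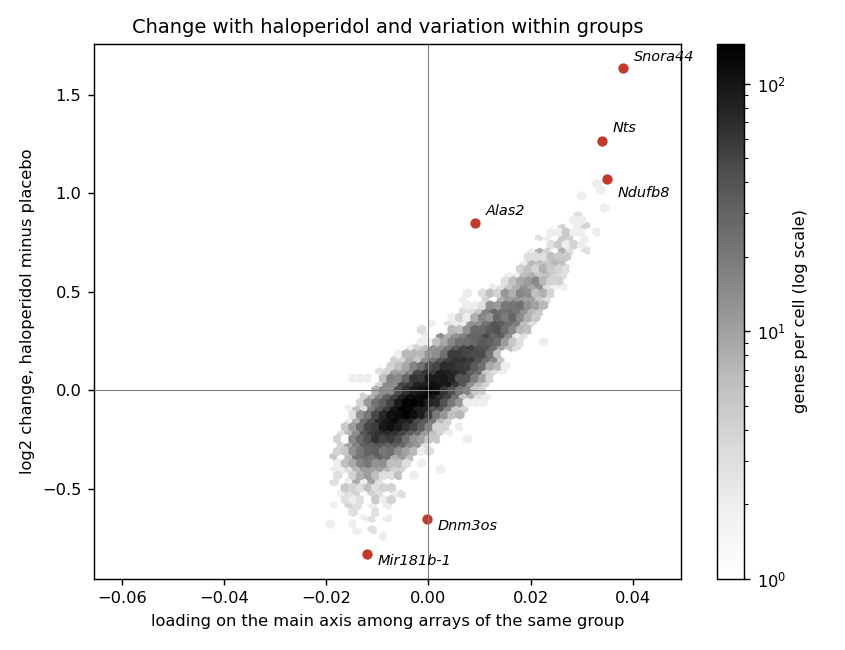
Log2 change, haloperidol minus placebo (vertical axis), against the loading on the main axis of variation among arrays of the same group (horizontal axis), for 12547 genes, with shading for genes per cell on a log scale and 6 genes marked in red. Most genes lie along a diagonal, and Alas2, Dnm3os and Mir181b-1 lie off it.

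With the first component as a covariate in limma, 0 genes passed, and 913 had an unadjusted p under 0.05. With the array median as a covariate, 0 passed and 550 had an unadjusted p under 0.05, against 5526 without a covariate. Both covariates differed between the groups, so drug and axis cannot be fully told apart by these fits. The smallest adjusted p was that of Tent5c in both, 0.10 and 0.30. Tent5c, which encodes a poly(A) polymerase, is named for that reason, after its values were seen. It was at 6.90 to 7.33 (median 7.0) with haloperidol and 6.17 to 6.93 (median 6.37) with placebo, with changes of 0.59 without a covariate, 0.65 with the component and 0.69 with the array median. With the component as a covariate Alas2 kept a change of 0.62 and Vaultrc5 of 0.85, whereas Nts fell to 0.38 and Ndufb8 to 0.17.

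The median of each array over all 35556 probes was also lower with haloperidol. It was 6.08 to 6.33 (median 6.20) against 6.27 to 6.40 (median 6.34), and 9 of 10 haloperidol arrays lay below every placebo array. The difference was -0.14 (permutation test, two-sided p = 0.00016, adjusted 0.00032). The shift lay in the 12457 probes without a gene name, with a difference of -0.25 (permutation p = 0.00014), while over the 21218 probes with 1 gene symbol it was 0.01 (permutation p = 0.54). Subtracting the median over all probes gave 4088 genes higher and 467 lower, all of the latter among the 1905, and moved the median of all genes to 0.12. It added 0.14 to the change of every gene, so the synaptic, clock and scaffold lists with medians nearest 0 turned positive under it. Subtracting the median over probes with 1 symbol, a setting added after seeing the data, gave 1877 higher and 2079 lower.

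Leaving out haloperidol 4T kept most calls. Then 1947 genes were higher (15.5%) and 2302 lower (18.3%), with 1817 of the higher and 1830 of the lower genes called both times. The median move of a called change was 0.02 log2 units. The largest was 0.22, for Adh1, an alcohol dehydrogenase gene that is abundant in liver, and Adh1 is named for that reason. Of the genes called lower, 472 passed only without 4T. Leaving out haloperidol 4N and 4T and placebo 1L gave 1184 higher and 1334 lower, of which 1172 and 1189 were also called with all arrays. Without the 6 arrays with Gh above 6, 1760 were higher and 1707 lower, of which 1620 and 1486 were also called with all arrays.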

How the data were processed

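Whole-brain RNA was measured on Affymetrix arrays. The submitters' processing notes name RMA and Affymetrix Expression Console, without versions, for the deposited log2 values. RMA adjusts arrays to each other, so changes are relative. The deposited values still differed in distribution, with array medians of 6.08 to 6.33 with haloperidol and 6.27 to 6.40 with placebo. Signal over background was not used, and the number of arrays limits precision.

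Of 35556 probes, 21218 carried 1 gene symbol in the platform annotation held by GEO (some names may be outdated), 1881 several and 12457 none. The probe of highest mean over all arrays of the series per gene gave 18820 genes, of which 18790 matched RefSeq by Entrez ID. Of other probes of called genes, 848 of 923 had the same sign. The lowest 33.3% by brain mean (below 5.52) were left out. Groups were compared with limma 3.58.1 in R 4.3.3 (lmFit, eBayes), two-sided, with Benjamini-Hochberg adjustment over 12547 genes. The fit was tested on simulated data. Array measures used permutation tests with 100000 resamples.

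Genes named were the largest rises and falls, up to 3 per list among 37 gene lists, haloperidol's binding sites, genes whose groups did not overlap, and changes kept across settings. Exceptions are marked. Members and lists were chosen with earlier results of these data known. Alternatives covered the filter, scale, covariates, tag blocks, variances, array weights, probe choice and arrays left out. The subtraction of the median over probes with 1 symbol and the omission of arrays with Gh above 6 were chosen after seeing the data.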

Additional observations from a re-analysis of the deposited data

Results flagged for a closer look

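An array was singled out where it lay far from the other 9 of its group, by Dixon's gap test. This occurred 26 times among 304 groups of 10 arrays checked, against 15.2 expected at 1 in 20 by chance.

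In haloperidol 4T the liver gene Alb was at 11.11, against a group median of 4.23. The same array was the highest of its group in Drd3 (6.99), Drd5 (7.07) and Dhcr7 (8.63). In placebo 1L the pituitary gene Gh was at 11.49, against a median of 5.11. That array was also the highest placebo array in Arpp21 (11.36) and Drd3 (7.91), and the lowest in Grp (7.06), Slc6a3 (6.79), S100b (8.74), Pvalb (9.37), Calml4 (5.10) and Kcne2 (5.26).

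Placebo 1N was the lowest of its group in Tomm70a (9.42), Psme1 (7.47), Gabra4 (10.31) and Fcer1g (6.58), and the highest in Mir505 (9.51), Chd9 (10.04) and Lrrfip2 (9.07). Each of these 7 values lay on the side of placebo away from the haloperidol arrays. Haloperidol 4N was the lowest of its group in Srrm1 (8.72) and Per3 (7.31).

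The remaining ones were single values. Rln3 was at 9.27 in haloperidol 3B, against a group median of 7.63. Opalin was at 7.22 in haloperidol 1R, against 8.42. Arntl was at 7.90 in placebo 4R, against 8.30, and Vip at 7.56 in placebo 4B, against 6.83.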

How the results depend on the processing

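The counts of 1911 genes higher and 1905 lower held within 1.5 times under the filters on dim genes, quantile normalization, tag digit or letter as a block, other variance models, array weights and probe choice. Leaving out single arrays gave 1494 to 2345 higher and 1372 to 2492 lower, and the array median difference stayed between -0.15 and -0.12. Of 132 named genes called, 122 passed in every such fit, and Snora73b, Dlg2, Dlgap1, Gabra4, Htr2c, Ddit4, Per1, Slc17a7, Tmem212 and Kcne2 did not. With the array median subtracted, 4088 were higher and 467 lower. With the array median or the first component as a covariate, 0 were higher and 0 lower. Leaving out 3 arrays together, placebo 1L and haloperidol 4N and 4T, gave 1184 higher. The array median difference turned to 0.0093 over probes with 1 gene symbol. The cause of these moves was not tested. No paired analysis was possible because haloperidol and placebo brains share no tag.

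Some named genes changed sign. With the first component as a covariate they were Tomm5 (-0.037), Zfp931 (-0.011), Dlgap1 (0.095), Gabrg1 (-0.085), Gabra4 (-0.055), Pclo (0.025), Nrxn3 (0.028), Cacna1a (0.0035), Rgs2 (-0.011), Ddit4 (-0.058), Per1 (0.041), Per3 (0.012), Ppp1r14a (-0.040), Aspa (-0.087), Slc17a7 (0.027) and Kcne2 (-0.13). With the array median as a covariate they were Phxr4 (0.00061), Slc39a2 (0.0079), Airn (0.065), 9530091C08Rik (0.17), 4931406H21Rik (0.16), Gdap10 (0.061), Mir708 (0.015), Mir505 (0.046), Mir379 (0.036), Srrm2 (0.017), Dlgap1 (0.086), Unc13b (0.0040), Htr2c (-0.022), Per3 (0.073), Kcne2 (-0.070) and Mir690 (0.025). With the array median subtracted they were Dlg2 (0.00072) and Snap25 (0.13).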

Other observations

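Several large changes belonged to no list. Churc1 rose by 1.01 and Fmc1, an assembly factor of ATP synthase, by 1.04. AI413582 rose by 1.11, while its second, dimmer probe differed by 0.08. Among the falls, Phxr4 changed by -0.79, Slc39a2, a zinc transporter gene, by -0.70 and Rnf148 by -0.70.

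By chromosome, the X chromosome had 99 genes higher and 47 lower of 421 tested, with a median change of 0.05, and chromosome 12, which carries the imprinted microRNA cluster, had 56 higher and 101 lower of 472, with a median of -0.03. Over all genes tested, 15.2% were higher and 15.2% lower. The lower genes of chromosome 12 include the 31 lower microRNA genes of the cluster, given above. The shares on these chromosomes were not tested against the rest.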
